A study of Mus musculus with 12 samples.

Results

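The genes described here are 4 receptor tyrosine kinase genes and 6 ligand genes through which growth factors act on hepatocytes: Egfr, Erbb2, Erbb3 and Met, with Hgf, Areg, Ereg, Hbegf, Tgfa and Btc. They were chosen by gene symbol, and all 10 were found among the 48576 genes listed in each liver library. 9 of the 10 had enough counts to be tested, while Areg did not.

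EGFR, ERBB2 and ERBB3 belong to the ErbB family. Ligand binding makes them pair, and the paired kinases feed the RAS-ERK and PI3K-AKT relays. ERBB2 binds no known ligand and ERBB3 has little kinase activity, so both work mainly as partners. MET is the receptor of hepatocyte growth factor (HGF), which in liver comes chiefly from stellate and endothelial cells, is laid down as an inactive precursor and is cut by proteases. EGFR and MET are both known for driving hepatocyte division after partial hepatectomy in rodents.

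RNA was sequenced from 12 mouse livers of 2 overgrowth models. In the YAP model, mice of genotype Col-TRE-YAPS127A; Rosa26-LSL-rtTA received AAV-TBG-Cre, whose TBG promoter is active in hepatocytes, at 8 to 10 weeks of age, and doxycycline then switched on YAPS127A, a YAP that resists Hippo inhibition, for 2 weeks (n = 2) or 4 weeks (n = 3). YAP controls (n = 2) had this genotype without induction, and the labels do not say whether they received the virus. In the MYC model, LAP-tTA; TRE-MYC offspring, in which the liver-active LAP promoter drives tTA, expressed MYC from about embryonic day 8, when doxycycline was withdrawn from the mothers, until the livers were harvested at a postnatal age of 4 weeks (n = 3). MYC controls (n = 2) carried LAP-tTA alone on the same doxycycline schedule. The labels name hepatocytes as the cell type, but the RNA was that of whole liver, and all 8 hepatocyte markers checked were present in every library. In such samples fewer cells of a type and less RNA per cell cannot be told apart.

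Libraries held 12511170 to 17690798 counts. Levels are given as CPM, the counts of a gene scaled to library depth with TMM factors, and a gene was called changed at an adjusted p under 0.05. Yap1 did not mark the YAP groups, at 83.8 ± 5.14 CPM at 2 weeks and 73.4 ± 10.8 CPM at 4 weeks, against 83.8 ± 3.76 CPM in YAP controls (SD, n = 2, 3 and 2), and Myc had 25.6 ± 5.06 CPM in MYC livers against 11.1 ± 6.2 CPM in MYC controls (SD, n = 3 and 2). Myc did not mark the MYC livers among the 5 groups. It had 106 ± 2.06 CPM at 2 weeks and 97.8 ± 28.8 CPM at 4 weeks of YAP, against 30.7 ± 31.9 CPM in YAP controls (SD, n = 2, 3 and 2). Whether transgene reads map to these mouse genes is not given in the sources used here. Transcripts of the sex chromosomes showed a female pattern in YAP 2-week replicate 2 and in all 3 YAP 4-week libraries and a male pattern in the others, so sex and 4 weeks of YAP cannot be told apart against the male YAP controls. Skeletal muscle markers summed to 459 and 505 CPM in the YAP 2-week livers, against 0.955 and 1.26 CPM in YAP controls.

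Among the tested members, Erbb2 and Hbegf rose and Erbb3 and Met fell after 2 weeks of YAP, and the same 4 genes were called in the same directions after 4 weeks. In MYC livers Egfr, Erbb3 and Btc fell and no member rose. The 2-week count of 2 higher and 2 lower among 9 tested members stands beside 27.8% of all 17964 tested genes called in either direction (15.1% higher, 12.7% lower). At 4 weeks the background was 33.8% (18.1% higher, 15.7% lower), and under MYC it was 18.3% (9.76% higher, 8.56% lower). Counts this small are not set apart from those shares, and the results below concern single genes. With total-count scaling the members' split was 3 higher and 0 lower at each YAP time, and that of all genes was 5228 higher and 979 lower at 2 weeks and 7863 higher and 897 lower at 4 weeks, while under MYC 2 members were higher and 3 lower. The members' median log2 fold change was 0.06 at 2 weeks, -0.54 at 4 weeks and -0.94 under MYC, beside medians of 0.10, 0.18 and 0.02 over all tested genes.

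**Figure D1:**
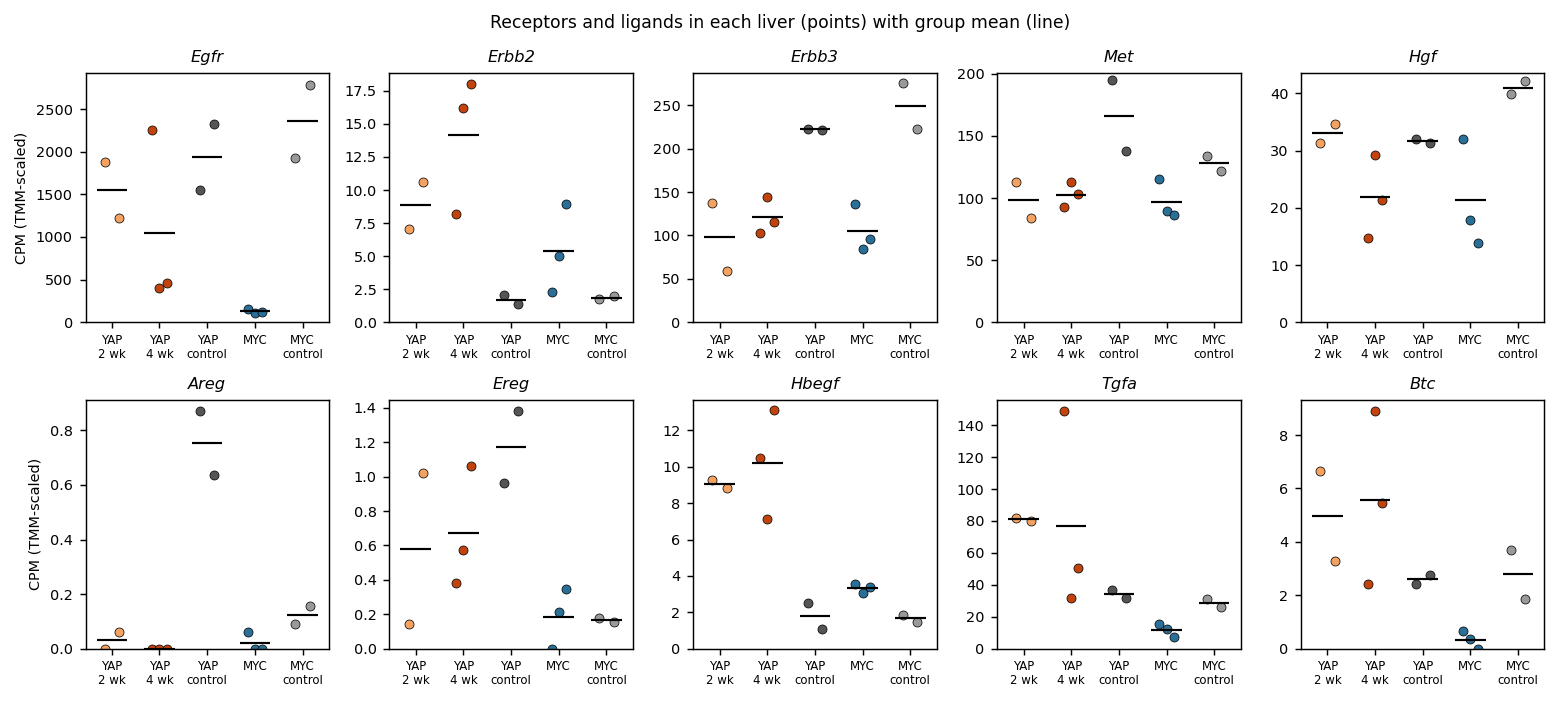
Level of each receptor and ligand in every liver, in TMM-scaled CPM on a linear axis from 0 (points, 1 per library), with the group mean as a line. The 3 MYC livers lie at 109 to 154 CPM for Egfr, all below both MYC controls, and every YAP liver lies above both YAP controls for Erbb2 and Hbegf.

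Per kilobase of exon, Egfr was the most abundant member in 4 of the 5 groups, at 137 CPM per kb at 2 weeks of YAP, 92 at 4 weeks and 171 in YAP controls, and at 208 in MYC controls. In MYC livers it had 11.3 CPM per kb and stood below Erbb3 (17.5) and Met (12.6). Among ligands, Tgfa was the most abundant in YAP livers (12.5 CPM per kb at 2 weeks and 11.9 at 4 weeks) and in their controls (5.28). Hgf led the ligands in MYC livers (2.96 CPM per kb) and in MYC controls (5.7). Ereg and Areg were lowest in both YAP groups and in both MYC model groups.

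**Figure D2:**
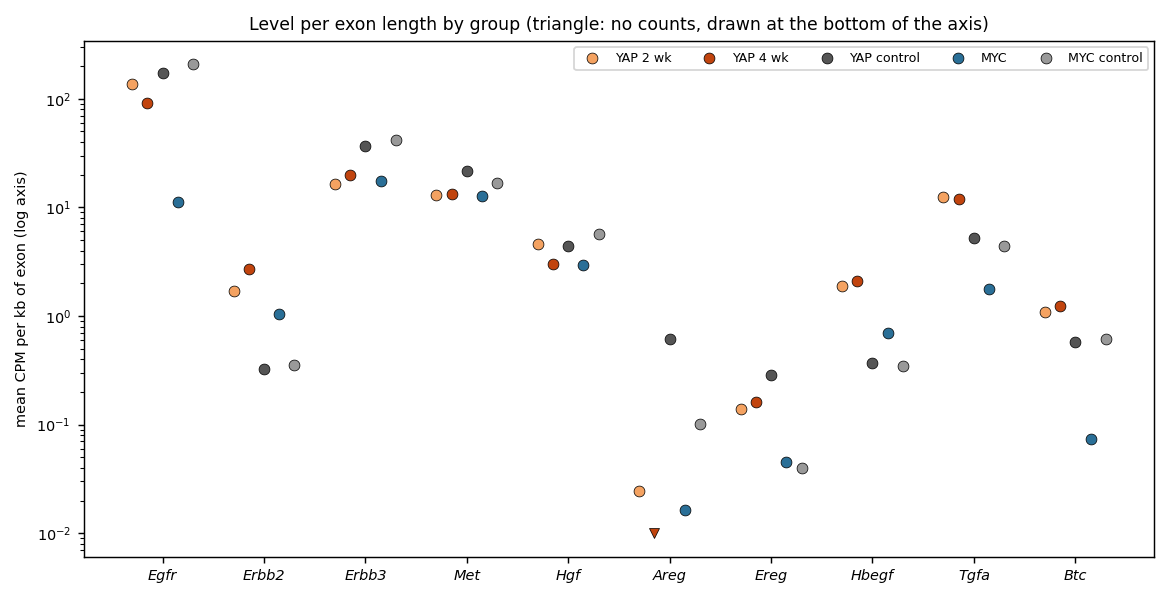
Mean level of each member per kilobase of exon (CPM per kb, log axis) in the 5 groups. Egfr leads in every group but the MYC livers, where its mean is 11.3 CPM per kb, and Erbb2 and Hbegf are higher in both YAP groups than in YAP controls.

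The receptors come first. Egfr (chr11:16752203-16918158, GRCm38, plus strand), the receptor of EGF, TGF-alpha and the other ligands listed except HGF, had 154, 109 and 121 CPM in the MYC livers, against 1929 and 2787 CPM in the MYC controls. Every MYC liver lay far below both controls. The means were 128 ± 23 CPM in MYC livers and 2358 ± 607 CPM in MYC controls (SD, n = 3 and 2), an 18.4-fold lower level, with a log2 fold change of -4.20 ± 0.68 (SE) and an adjusted p of 0.00329. The fall was called under all 12 other settings tried, with log2 fold changes from -4.45 to -3.81. The 8 hepatocyte markers summed to 30752 to 56441 CPM in MYC livers, against 109664 to 112624 CPM in MYC controls, with none at 0, and 3 of the 8 were called lower. Their part in the fall of Egfr was not tested.

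Under YAP, Egfr had 1882 and 1221 CPM at 2 weeks and 2260, 405 and 460 CPM at 4 weeks, against 1550 and 2321 CPM in YAP controls. The 2-week values overlapped the controls, and at 4 weeks replicate 1 stood among the controls while the other 2 lay below them. The log2 fold change was -0.32 ± 0.71 at 2 weeks (adjusted p 0.774) and -0.89 ± 0.63 at 4 weeks (adjusted p 0.303), and neither passed. In only 1 of 12 other settings was the 4-week change called: without 4-week replicate 1 it was -2.16 with an adjusted p of 0.000526. The same replicate had the highest hepatocyte marker sum of its group, at 73312 CPM beside 35862 and 34525 CPM, and the lowest cholangiocyte marker sum, at 505 CPM beside 3215 and 3308 CPM. The part of these cells in the Egfr values was not tested.

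Erbb2 (chr11:98412470-98437716, plus strand), the ligandless partner receptor, had 7.08 and 10.6 CPM at 2 weeks of YAP and 8.19, 16.2 and 18 CPM at 4 weeks, against 2.03 and 1.38 CPM in YAP controls. All 5 YAP livers exceeded both controls. Erbb2 rose 5.18-fold at 2 weeks (log2 fold change 2.37 ± 0.60, adjusted p 0.0142) and 8.29-fold at 4 weeks (3.04 ± 0.59, adjusted p 0.00285). In the MYC model it had 2.32, 4.98 and 8.94 CPM in MYC livers, against 1.77 and 1.95 CPM in MYC controls. These values did not overlap, but the change of 1.54 ± 0.55 did not pass (adjusted p 0.0754). Without MYC replicate 1 it was 1.90 with an adjusted p of 0.0146, and with this fit included it was called in 3 of 12 other settings.

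The 2-week rise of Erbb2 missed the threshold without either control, without 2-week replicate 2 and with a term for the sex pattern (log2 fold changes 2.05 to 2.68, adjusted p 0.0608 to 0.102). The 4-week rise was called in 11 of 12 other settings and was lost with the sex pattern term (2.46, adjusted p 0.223). Cholangiocyte markers summed to 646 and 1303 CPM at 2 weeks and 505 to 3308 CPM at 4 weeks, against 160 and 182 CPM in YAP controls, where Cldn4 was at 0. Of 9 tested markers on that list of 10, 3 rose at 2 weeks and 5 at 4 weeks. Within the 4-week group Erbb2 was lowest in replicate 1, where that sum was lowest too. In MYC livers the list summed to 40 to 56.6 CPM, against 42.5 and 45.8 CPM in MYC controls. Their part in the Erbb2 values was not tested.

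Erbb3 (chr10:128567523-128589652, minus strand), the partner that recruits PI3K and binds neuregulins, fell in all 3 comparisons. It had 137 and 59.5 CPM at 2 weeks and 103, 144 and 115 CPM at 4 weeks, against 223 and 222 CPM in YAP controls. It had 136, 84.8 and 95.9 CPM in MYC livers, against 276 and 223 CPM in MYC controls. Every liver with an oncogene lay below both of its controls. The level was 2.27-fold lower at 2 weeks (log2 fold change -1.18 ± 0.35, adjusted p 0.0278), 1.85-fold lower at 4 weeks (-0.89 ± 0.31, adjusted p 0.0465) and 2.37-fold lower under MYC (-1.24 ± 0.31, adjusted p 0.0194).

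Of these, the fall under MYC was called in 8 of 12 other settings and was lost when MYC replicate 2 or 3 or either MYC control was left out (adjusted p 0.0617 to 0.146). The YAP falls were less firm, called in 5 of 11 settings at 2 weeks and in 4 of 12 at 4 weeks. The 2-week call was lost without either YAP control or 2-week replicate 2 (adjusted p 0.0935 to 0.168), and the 4-week call without either control or 4-week replicate 1 or 3 (adjusted p 0.103 to 0.156). Scaling by total counts, which lifts the median of all genes to 0.64 at 2 weeks and 0.91 at 4 weeks, gave -0.70 and -0.14 (adjusted p 0.0805 and 0.668). A sex pattern term gave -0.70 at 2 weeks (adjusted p 0.16) and turned the 4-week value to 0.31.

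Met (chr6:17463800-17573980, plus strand), the HGF receptor, had 113 and 84 CPM at 2 weeks and 92.6, 113 and 103 CPM at 4 weeks, against 195 and 138 CPM in YAP controls. All 5 YAP livers lay below both controls. It fell, with log2 fold changes of -0.75 ± 0.23 at 2 weeks (adjusted p 0.0289) and -0.69 ± 0.20 at 4 weeks (adjusted p 0.022), a level 1.68-fold and 1.62-fold lower. Both calls were lost without YAP control replicate 1, which was the higher control (-0.48 and -0.42, adjusted p 0.231 and 0.243), and so they were with total-count scaling (-0.24 and 0.05, adjusted p 0.399 and 0.844) and with a sex pattern term (-0.55 and -0.26, adjusted p 0.194 and 0.757). The 2-week call was also lost without 2-week replicate 2 (-0.55, adjusted p 0.206) and the 4-week call without 4-week replicate 3 (-0.69, adjusted p 0.0554). MYC livers had 115, 89.2 and 86.5 CPM, against 134 and 122 CPM in MYC controls, without overlap, and the change of -0.40 ± 0.20 did not pass (adjusted p 0.196).

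Promoter windows are shown for 3 of the called members: Erbb2, which rose with YAP, and Egfr and Btc, which fell with MYC. Each is the 250 bases before the RefSeq start site on GRCm38.p6, written 5′ to 3′ on the gene's strand, with capitals marking a match to a searched motif. RefSeq promoters were at hand for 7 of the 10 members.
Erbb2, chr11:98412234-98412483, plus strand: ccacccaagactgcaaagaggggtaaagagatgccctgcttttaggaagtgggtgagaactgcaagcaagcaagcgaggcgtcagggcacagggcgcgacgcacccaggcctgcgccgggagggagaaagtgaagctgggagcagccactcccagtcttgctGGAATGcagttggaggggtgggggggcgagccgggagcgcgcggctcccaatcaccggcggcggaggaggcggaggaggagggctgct
Egfr, chr11:16751953-16752202, plus strand: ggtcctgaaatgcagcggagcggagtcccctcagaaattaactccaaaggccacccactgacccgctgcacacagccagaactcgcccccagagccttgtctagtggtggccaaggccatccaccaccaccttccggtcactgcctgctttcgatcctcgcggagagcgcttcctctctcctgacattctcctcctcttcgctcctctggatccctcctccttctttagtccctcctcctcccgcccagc
Btc, chr5:91402995-91403244, minus strand: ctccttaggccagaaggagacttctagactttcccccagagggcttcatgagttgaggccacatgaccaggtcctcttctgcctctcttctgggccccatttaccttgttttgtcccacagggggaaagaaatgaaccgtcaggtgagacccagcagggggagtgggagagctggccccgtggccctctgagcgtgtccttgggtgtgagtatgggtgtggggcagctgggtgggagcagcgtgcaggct
The searched motifs, on both strands, were GGAATG (bound by TEAD factors, the DNA-binding partners of YAP), CACGTG (the E-box bound by MYC-MAX) and TGANTCA (bound by AP-1), none of which overlaps another. The Erbb2 window held GGAATG 88 bases before the start site, and the Egfr and Btc windows held none of the 3 motifs. The Met window, not printed, held CACGTG 126 bases and TGAGTCA 54 bases before the start. Among 32851 promoter windows of the same length, 12.6% held GGAATG, 6.02% CACGTG and 6.75% TGANTCA. A match is a description of letters and not of binding.

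Among the ligands, Hgf (chr5:16553495-16620152, plus strand), the ligand of Met, had 31.4 and 34.6 CPM at 2 weeks and 14.7, 29.3 and 21.4 CPM at 4 weeks, against 32.1 and 31.4 CPM in YAP controls. The 2-week values overlapped the controls, and the 4-week values all lay below them. Neither change passed (log2 fold change 0.06 ± 0.37, adjusted p 0.93, and -0.54 ± 0.33, adjusted p 0.231). MYC livers had 32.1, 17.9 and 13.9 CPM, against 39.8 and 42.1 CPM in MYC controls. Their values did not overlap, and the change of -0.94 ± 0.33 missed the threshold (adjusted p 0.0708), while without MYC replicate 1 it was -1.36 with an adjusted p of 0.00562. That was the only 1 of 12 other settings to call Hgf under MYC.

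Stellate cell markers, of which none was at 0, summed to 908, 398 and 450 CPM in MYC replicates 1, 2 and 3, against 1041 and 1099 CPM in MYC controls, and 0 of the 12 were called changed under MYC (1 higher and 2 lower at 4 weeks of YAP). At 4 weeks of YAP the sums were 326, 1273 and 608 CPM, against 682 and 793 CPM in YAP controls, and Hgf ran in the same order over these 3 livers, while in MYC livers both were highest in replicate 1. The part of stellate cells in the Hgf values was not tested. The genes whose levels followed Hgf most closely over the 12 libraries were H2-D1, Tnfrsf1b and Dcn, with root mean square differences of 0.19, 0.24 and 0.24 in centred log2 CPM, where Hgf itself varied by 0.52. Dcn is 1 of the 12 stellate markers.

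Hbegf, the membrane-anchored heparin-binding ligand of EGFR and ERBB4, had 9.28 and 8.85 CPM at 2 weeks and 10.5, 7.11 and 13.1 CPM at 4 weeks, against 2.51 and 1.06 CPM in YAP controls. All 5 YAP livers stood above both controls. It rose 5.07-fold at 2 weeks (log2 fold change 2.33 ± 0.43, adjusted p 0.00271) and 5.72-fold at 4 weeks (2.50 ± 0.41, adjusted p 0.00119). The 2-week rise was called in all 11 other settings, with log2 fold changes from 1.85 to 3.09, and was 2.37 (adjusted p 0.0149) between the male 2-week liver and the male controls. The 4-week rise was lost in 1 of 12, the fit with a sex pattern term (2.57, adjusted p 0.106). MYC livers had 3.57, 3.08 and 3.37 CPM, against 1.86 and 1.48 CPM in MYC controls, a change of 1.00 ± 0.40 without overlap that did not pass (adjusted p 0.102).

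Macrophages also make Hbegf, and macrophage markers summed to 1446 and 1833 CPM at 2 weeks and 484 to 1034 CPM at 4 weeks, against 282 and 283 CPM in YAP controls. Of the 10 markers, 8 rose at 2 weeks and 5 at 4 weeks, and Ccr2 was at 0 in 1 control. The marker sums of the 2 YAP times did not overlap, whereas Hbegf values did, with a log2 fold change of 0.17 ± 0.35 for 4 over 2 weeks (adjusted p 0.942). MYC livers had 672 to 909 CPM, against 279 and 282 CPM in MYC controls, and 4 markers rose. Their part in the Hbegf values was not tested.

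Tgfa (chr6:86195223-86275719, plus strand), the EGFR ligand that hepatocytes make themselves, had 82.1 and 79.8 CPM at 2 weeks and 149, 31.4 and 50.3 CPM at 4 weeks, against 37 and 31.5 CPM in YAP controls. Both 2-week livers lay above the controls, and at 4 weeks 1 liver lay just under the lower control. The changes of 1.24 ± 0.61 and 1.17 ± 0.57 did not pass (adjusted p 0.159 and 0.143), though the second did without 4-week replicate 2 (1.54, adjusted p 0.0335). They were called in 2 of 11 other settings at 2 weeks and in 2 of 12 at 4 weeks. MYC livers had 15.2, 12.1 and 7.43 CPM, against 31.2 and 25.9 CPM in MYC controls. All 3 were below both controls, and the change of -1.30 ± 0.55 did not pass (adjusted p 0.134). Tgfa and Egfr were both highest in replicate 1 among the 4-week livers.

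Btc (chr5:91357261-91402994, minus strand), betacellulin, which binds EGFR and ERBB4, had 0.655, 0.351 and 0 CPM in MYC livers, against 3.71 and 1.87 CPM in MYC controls. No MYC liver reached either control. The mean was 8.33-fold lower (log2 fold change -3.03 ± 0.86, adjusted p 0.0323), on few counts, and the call held in 6 of 12 other settings. It was lost when MYC replicate 2 or 3 or either MYC control was left out, with changes from -3.45 to -2.43 and adjusted p from 0.0526 to 0.214. YAP livers had 6.66 and 3.29 CPM at 2 weeks and 2.41, 8.89 and 5.45 CPM at 4 weeks, against 2.42 and 2.76 CPM in YAP controls. Neither YAP change passed (0.94 ± 0.84, adjusted p 0.434, and 1.11 ± 0.78, adjusted p 0.297).

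Areg and Ereg, amphiregulin and epiregulin, lie with Btc within 328 kb of chromosome 5 (91139599 to 91148432 and 91074622 to 91093646, both plus strand). Areg, a known YAP target in human epithelial cells, had 0 and 1 counts at 2 weeks and 0, 0 and 0 counts at 4 weeks, against 9 and 6 counts in YAP controls. It was too low to be tested. Its mean in YAP controls was 4.27 times a floor of 3 counts per library at 4 weeks. This floor covers only the counting error at 4 weeks and not that of the 9 and 6 control counts, so the ratio is no firm bound. MYC livers had 1, 0 and 0 counts, against 1 and 2 counts in MYC controls, and no fold is given. Ereg had 0.142 and 1.02 CPM at 2 weeks and 0.381, 0.574 and 1.06 CPM at 4 weeks, against 0.966 and 1.38 CPM in YAP controls. In the MYC model it had 0, 0.21 and 0.348 CPM in MYC livers, against 0.177 and 0.156 CPM in MYC controls. All of these groups overlapped their controls, and no Ereg change passed (adjusted p 0.524, 0.548 and 0.955).

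**Figure D3:**
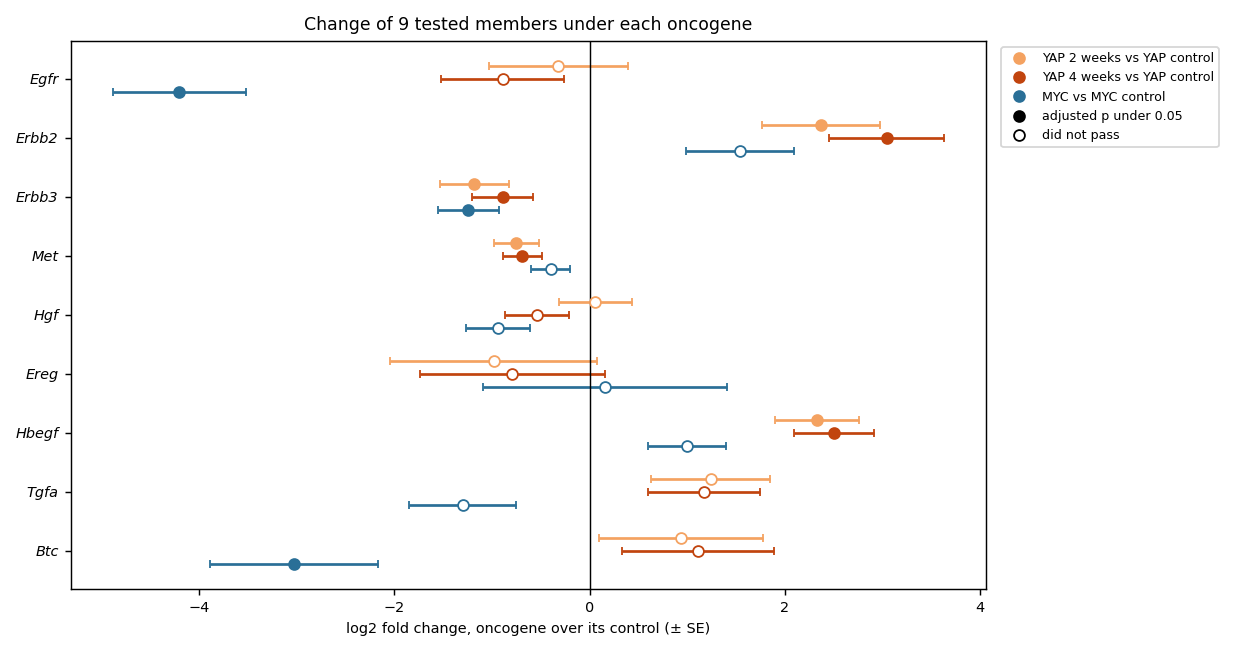
Log2 fold change (± SE) of the 9 tested members in livers with each oncogene over their own controls. Filled points passed an adjusted p under 0.05: Erbb2 and Hbegf lie above 0 and Erbb3 and Met below 0 at both YAP times, while Egfr (-4.20), Erbb3 and Btc lie below 0 under MYC.

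No member changed between 4 and 2 weeks of YAP in edgeR's quasi-likelihood test: 0 were called, 0 had an unadjusted p under 0.05 and DESeq2 called 0, where the background was 0.0612%. Without 4-week replicate 1, Egfr was lower at 4 than at 2 weeks (log2 fold change -1.84, adjusted p 0.0118). The MYC effect was also compared with the 4-week YAP effect as a difference of log2 fold changes. For this difference edgeR called 0 members, against a background of 7.48% (3.15% higher, 4.33% lower). DESeq2 called 3, all lower under MYC, where it called 2482 of all 17569 genes it tested (1154 higher, 1328 lower). In edgeR 4 members had an unadjusted p under 0.05, all lower under MYC, and the share of all genes at that threshold is not given here. The 4 were Egfr (-3.31 ± 0.94, adjusted p 0.06), Btc (-4.14 ± 1.18, adjusted p 0.0569), Tgfa (-2.47 ± 0.80, adjusted p 0.0949) and Hbegf (-1.50 ± 0.55, adjusted p 0.125). Without 4-week replicate 1 the difference was -2.04 for Egfr (adjusted p 0.0105), -4.50 for Btc (adjusted p 0.0224) and -1.56 for Tgfa (adjusted p 0.0331). Over 17 other settings Egfr was called in 5, Btc in 4, Tgfa in 4 and Hbegf in 0. The 2 models also differ in age and in the time of induction, which cannot be told apart from the oncogene here.

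Beyond the members, Nrg1 encodes neuregulin, a ligand of ERBB3 and ERBB4. It had 89.4 and 87 CPM at 2 weeks and 95.8, 33.5 and 61.1 CPM at 4 weeks, against 1.64 and 0.637 CPM in YAP controls. Nrg1 rose 77.4-fold at 2 weeks (log2 fold change 6.25 ± 0.57, adjusted p 0.000104) and 55.7-fold at 4 weeks (5.77 ± 0.55, adjusted p 8.16e-05), and was called in all 11 and all 12 other settings. MYC livers had 0.893, 0.631 and 0.406 CPM, against 0.265 and 0.234 CPM in MYC controls. Nrg2, a related ligand gene, had 7 and 11 counts at 2 weeks and 13, 1 and 13 counts at 4 weeks, against 0 in both YAP controls, and 11, 10 and 2 counts in MYC livers, against 0 in both MYC controls, and it did not pass (adjusted p 0.0765, 0.0663 and 0.0873). Mst1, which encodes the HGF-like ligand MSP, fell in all 3 comparisons, with means of 42.4 CPM at 2 weeks and 35.4 CPM at 4 weeks, against 83.5 CPM in YAP controls, and 53.1 CPM in MYC livers, against 94.2 CPM in MYC controls (adjusted p 0.0138, 0.00191 and 0.025). The 4-week fall of Mst1 was called in 11 of 12 other settings and was lost with a sex pattern term (-0.73, adjusted p 0.359). Its 2-week fall was called in 7 of 11, being lost without YAP control replicate 1 or 2-week replicate 2, with total counts and with a sex pattern term (adjusted p 0.0786 to 0.123), and its fall under MYC in 7 of 12, being lost with total counts and without each MYC model library but MYC replicate 1 (adjusted p 0.077 to 0.155). Of the 9 other receptor and ligand genes of these families, 7 were tested. At both YAP times Nrg1 was the 1 called higher and Mst1 the 1 called lower, and under MYC Mst1 was the 1 called. Beside 27.8%, 33.8% and 18.3% of all tested genes called, these counts do not set the list apart. Erbb4, the remaining ErbB receptor, averaged 41.2 ± 13.7 CPM at 2 weeks and 34.6 ± 11.1 CPM at 4 weeks, against 20.7 ± 1.56 CPM in YAP controls, and 0.103 ± 0.122 CPM in MYC livers, against 0.211 ± 0.0772 CPM in MYC controls (SD, n = 2, 3, 2, 3 and 2). It was picked after its values were seen and was not called in any comparison.

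The 15 genes that activate, inhibit or shed the ligands were all tested: 4 rose and 2 fell at 2 weeks, 6 rose and 3 fell at 4 weeks, and 1 rose and 3 fell under MYC, with median log2 fold changes of 0.38, 0.61 and -0.34. Beside these counts stand 27.8%, 33.8% and 18.3% of all tested genes called. With 1 library left out the list had 3 to 4 calls at 2 weeks, lowest without either YAP control or 2-week replicate 2, and 3 to 12 at 4 weeks, lowest without YAP control replicate 1. Under MYC it had 0 to 6, with 0 calls without MYC control replicate 1. Rhbdf1, whose product iRhom1 carries the sheddase ADAM17, had 62.8 and 41.8 CPM at 2 weeks and 53.4, 32.6 and 42.4 CPM at 4 weeks, against 3.57 and 3.5 CPM in YAP controls. It rose 14.8-fold (log2 fold change 3.88 ± 0.38, adjusted p 0.000105) and 12.1-fold (3.59 ± 0.36, adjusted p 8.07e-05), and all 11 and all 12 other settings called it. Hgfac, the serum protease that cuts the HGF precursor, had 46.8 and 25.9 CPM at 2 weeks and 26.6, 50.2 and 31.4 CPM at 4 weeks, against 206 and 222 CPM in YAP controls. It fell at both times, to levels 5.88-fold and 5.93-fold lower (-2.56 ± 0.39, adjusted p 0.00115, and -2.57 ± 0.34, adjusted p 0.00042). The 4-week call of Hgfac was lost with a sex pattern term (-1.72, adjusted p 0.16). Plaur, the receptor of urokinase, rose in all 3 comparisons, by 3.17 ± 0.51 at 2 weeks, 3.08 ± 0.49 at 4 weeks and 2.69 ± 0.53 under MYC on the log2 scale (adjusted p 0.00127, 0.000954 and 0.00689). Plaur had only 11 and 8 counts in YAP controls and 4 and 5 counts in MYC controls. Its 4-week call was lost with a sex pattern term (1.76, adjusted p 0.18). Plaur is also a gene of myeloid cells, whose markers rose in both models: neutrophil markers summed to 559 to 1191 CPM in MYC livers, against 4.95 and 5.46 CPM in MYC controls, and their part was not tested. At 4 weeks of YAP the sheddase gene Adam9 was called lower (-0.63 ± 0.19, adjusted p 0.0239) and the protease inhibitor gene Spint2 higher (0.59 ± 0.19, adjusted p 0.032). Neither was called at 2 weeks (adjusted p 0.0518 and 0.178). In MYC livers Adam9 and Spint2 both fell (log2 fold changes -0.98 ± 0.19 and -0.91 ± 0.18, adjusted p 0.00593 and 0.0076). Both calls were lost without MYC control replicate 1 (adjusted p 0.0731 and 0.0905), and that of Plaur under MYC without either MYC control (adjusted p 0.0739 and 0.0673).

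Of the 26 adaptor and relay genes, 4 rose and 3 fell at 2 weeks, 4 rose and 5 fell at 4 weeks, and 0 rose and 3 fell under MYC, with medians of -0.04, -0.13 and -0.15. At the YAP times these counts are near the 27.8% and 33.8% of all tested genes called, and the count under MYC is below 18.3%, so the list is not set apart by them. The docking adaptor Gab1, which MET and EGFR both use, averaged 69.2 CPM at 2 weeks and 65.3 CPM at 4 weeks, against 26.8 CPM in YAP controls (log2 fold change 1.37 ± 0.18, adjusted p 0.0004, and 1.28 ± 0.16, adjusted p 0.000299). Its relative Gab2 averaged 29.5 and 19.4 CPM at the same times, against 7.39 CPM (2.00 ± 0.23, adjusted p 0.000208, and 1.39 ± 0.21, adjusted p 0.000717). Sos1, the exchange factor that loads RAS, fell to 73.7 CPM at 2 weeks and 76.1 CPM at 4 weeks, against 152 CPM in YAP controls (adjusted p 0.00174 and 0.000954). A sex pattern term ended the 4-week calls of Gab2 (1.44, adjusted p 0.0919) and Sos1 (-0.59, adjusted p 0.282). Akt2 was called lower at 2 and 4 weeks of YAP (-1.16 ± 0.20 and -0.94 ± 0.18, adjusted p 0.00205 and 0.00288). Pik3r1 was called lower at 4 weeks of YAP only (-0.47 ± 0.15, adjusted p 0.0313). For neither gene was the MYC effect called different from the 4-week YAP effect (adjusted p 0.586 and 0.872). In MYC livers Plcg1, Akt2 and Pik3r1, which encode a phospholipase, a kinase and the PI3K regulatory subunit, fell (log2 fold changes -0.93, -0.67 and -0.55, adjusted p 0.0105, 0.0251 and 0.0267). These 3 calls were weak: Plcg1 was called in 9 of 12 other settings, Akt2 in 6 and Pik3r1 in 4, with adjusted p of up to 0.104, 0.312 and 0.587, and without either MYC control 0 genes of the list were called. With total-count scaling the split of this list was 8 higher and 1 lower at 2 weeks, 14 higher and 0 lower at 4 weeks, and 4 higher and 0 lower under MYC, and the fall of Sos1 did not pass at either time (adjusted p 0.0577 and 0.241).

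Of the 22 feedback inhibitors, 4 rose and 3 fell at 2 weeks, 6 rose and 3 fell at 4 weeks, and 1 rose and 7 fell under MYC, with medians of 0.18, 0.04 and -0.53, beside 27.8%, 33.8% and 18.3% of all tested genes called. With total-count scaling the split was 10 higher and 1 lower at 2 weeks, 13 higher and 0 lower at 4 weeks and 2 higher and 5 lower under MYC. The lowest counts with 1 library left out were 4 at 2 weeks (without any 1 of its libraries), 4 at 4 weeks (without YAP control replicate 1) and 3 under MYC (without MYC replicate 3 or MYC control replicate 2). Errfi1 (MIG6), an inhibitor of the EGFR kinase, had 761 and 623 CPM at 2 weeks and 567, 487 and 729 CPM at 4 weeks, against 1497 and 1543 CPM in YAP controls. In the MYC model it had 706, 339 and 446 CPM in MYC livers, against 1591 and 1434 CPM in MYC controls. No liver with either oncogene reached its controls, and the level was 2.56-fold lower at 4 weeks (-1.35 ± 0.29, adjusted p 0.00532) and 3.04-fold lower under MYC (-1.61 ± 0.29, adjusted p 0.00481). Lrig1, which promotes loss of ErbB receptors, fell with YAP (-1.82 ± 0.31 and -1.41 ± 0.27, adjusted p 0.00165 and 0.00258), whereas Spry1, an inhibitor of the RAS-ERK relay, rose (2.14 ± 0.29 and 1.91 ± 0.27, adjusted p 0.000503 and 0.000513). The 4-week calls of Errfi1 and Lrig1 were lost with total-count scaling (adjusted p 0.0658 and 0.0965). A sex pattern term ended both as well (adjusted p 0.35 and 0.219). Nf1, the RAS-inactivating protein, and Cblc, a ubiquitin ligase, fell under MYC (-0.92 ± 0.13 and -1.40 ± 0.26, adjusted p 0.00126 and 0.00477).

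Genes that ERK signalling is known to switch on form the last list. Of 19 tested genes of this list of 20, 5 rose and 1 fell at each YAP time, while 1 rose and 11 fell under MYC, with medians of 0.72, 0.78 and -1.83. The 6 calls at each YAP time are near the 27.8% and 33.8% of all tested genes called and do not set the list apart. The 12 under MYC stand beside 18.3%, but the list was chosen with earlier results of these data known. That count is therefore no test of the list. Leaving out 1 library gave as few as 1 call at 2 weeks (without 2-week replicate 2), 1 at 4 weeks (without YAP control replicate 2) and 6 under MYC (without MYC control replicate 2). The list also holds Myc, the transgene of the MYC model, which was not called in these 3 comparisons. Egr1 had 18.1, 9.67 and 17.1 CPM in MYC livers, against 462 and 557 CPM in MYC controls, a 34-fold lower level (log2 fold change -5.09 ± 0.53, adjusted p 0.000518). Fos had 0.536, 0.631 and 0.348 CPM in MYC livers, against 16 and 25.3 CPM in MYC controls (-5.35 ± 0.60, adjusted p 0.000552), and Ier2 averaged 10.8 CPM against 88.9 CPM (-3.04 ± 0.27, adjusted p 0.000164). All 3 are immediate early genes, and all were called in 12 of 12 other settings. The controls of the models differed for Egr1, with 49.7 and 109 CPM in YAP controls, a level far below that of MYC controls. They differed for Ier2 too, with 11.4 and 21.6 CPM in YAP controls against 83.2 and 94.7 CPM in MYC controls. MYC livers had 11.9, 11.8 and 8.82 CPM of Ier2, near the YAP controls. For Fos the YAP controls had 7.73 and 25.5 CPM, which span the values of MYC controls. With YAP, Ier3 and Mcl1, which restrain cell death, rose (Ier3 by 2.48 ± 0.60 and 2.76 ± 0.58, adjusted p 0.0116 and 0.00476, and Mcl1 by 1.22 ± 0.26 at 2 weeks, adjusted p 0.00614), and Phlda1 fell (-3.94 ± 0.75 and -3.05 ± 0.62, adjusted p 0.0049 and 0.00535). Under MYC Ier3 rose too (2.42 ± 0.76, adjusted p 0.0478), on 1 and 6 counts in MYC controls, and was the 1 gene of the list called higher. Phlda1 also fell under MYC (-2.27 ± 0.63, adjusted p 0.0346), while Mcl1 was not called there (adjusted p 0.721). For Ier3 and Phlda1 the MYC effect was not called different from the 4-week YAP effect (adjusted p 0.893 and 0.645). The 2-week call of Ier3 was lost without either YAP control, without 2-week replicate 2 and with a sex pattern term (adjusted p 0.0588 to 0.132), and its 4-week call without YAP control replicate 2 (adjusted p 0.0539) and with that term (adjusted p 0.493). Phlda1 was lost at 2 weeks without 2-week replicate 2 (adjusted p 0.0522), and at 4 weeks without YAP control replicate 1 (adjusted p 0.0582) and with that term (adjusted p 0.26). As a difference between effects, 10 of the 19 were lower under MYC than at 4 weeks of YAP and 0 were higher, with a median of -2.97, beside -0.07 and 7.48% called over all tested genes. This is no test of the list either, since it was chosen with earlier results known. The count of 10 was 1 with a sex pattern term, 4 without MYC control replicate 2 and 5 without YAP control replicate 1.

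**Figure D4:**
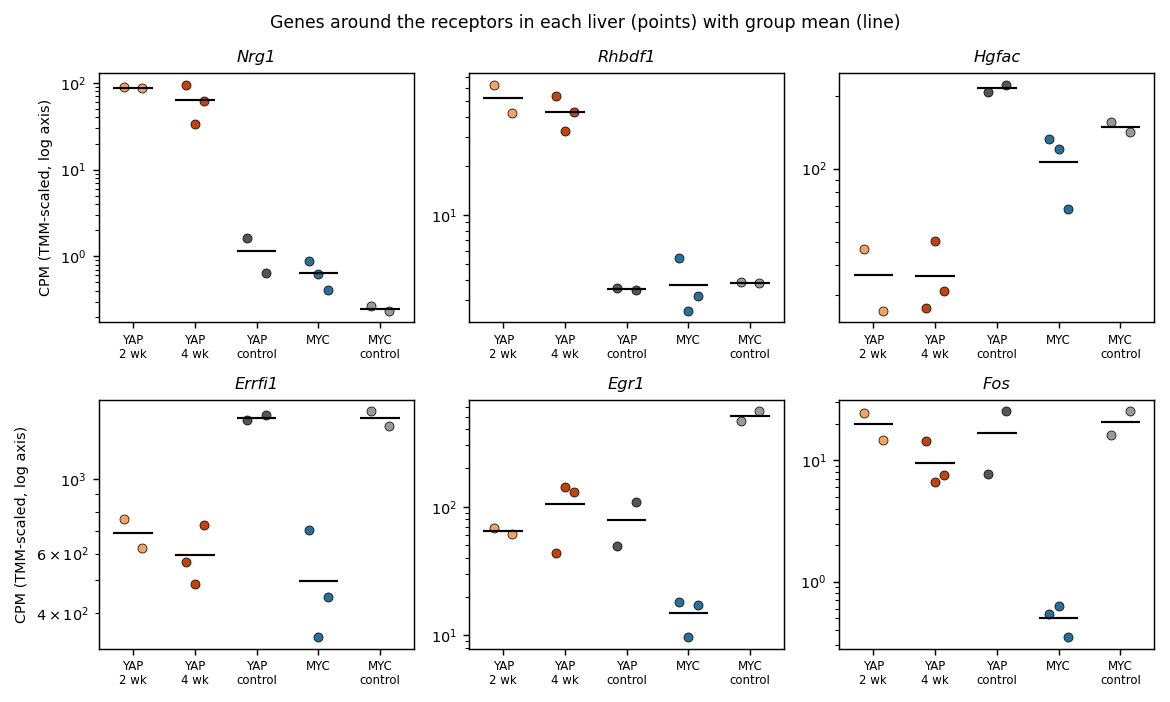
Level of 6 genes around the receptors in every liver, in TMM-scaled CPM on a log axis (points), with the group mean as a line. Nrg1 and Rhbdf1 are higher and Hgfac and Errfi1 lower in all YAP livers than in YAP controls, and Errfi1, Egr1 and Fos are lower in all MYC livers than in MYC controls, where Egr1 had 462 and 557 CPM.

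Closeness of pattern over the 12 libraries, measured as the root mean square difference of centred log2 CPM, was described for each tested member. Egfr, which itself varied by 1.71, was nearest to Cyp2r1 (0.52), Snord118 (0.59) and Epb41l4b (0.60). Cyp2r1 averaged 1.56 ± 0.98 CPM in MYC livers, against 15.5 ± 3.73 CPM in MYC controls (SD, n = 3 and 2). Erbb2 was nearest to Itpr3 (0.36), Ceacam16 (0.36) and Sh3d21 (0.40), Erbb3 to Tprkb (0.16) and Klf12 (0.19), and Met to Carkd (0.10), Zdhhc5 (0.13) and Ide (0.14). Hbegf was nearest to Slc6a20b (0.25), Klf6 (0.32) and Zfp608 (0.35), Tgfa to Slco2a1 (0.28), Myh14 (0.30) and Rundc3a (0.35), Btc to Clu (0.55), Plce1 (0.63) and Palmd (0.66), and Ereg to Whrn (0.51), Pcnx4 (0.58) and Fam101a (0.58). No nearest gene of a member was another member.

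Some exons overlap those of other genes, and the strand setting of the counting is not given in the sources used here. Tgfa shares 118 exon bases with Gm43917 on the opposite strand, which had at most 42 counts, and Hgf shares 484 bases with Gm43489 on the same strand, which had at most 14 counts. Erbb2 shares 9 bases with Mien1 and Ereg 141 bases with Gm19610, both on the opposite strand.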

How the data were processed

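Liver RNA was sequenced in 12 libraries, 1 per liver. The authors deposited unnormalised whole-number read counts for each gene symbol, 1 table per library. Per the submitters' processing notes, reads were handled on the build GRCm38 with HISAT2 2.1.0, Trim Galore 0.4.1, DESeq2 1.20.0 and featureCounts 1.6.3, whose roles are not stated. The annotation release and strand setting are not given in the sources used here. Of 48576 symbols, 46271 matched GENCODE vM21, which gave coordinates and exon lengths. Replicate pairs differed by more than counting error (chi-square per degree of freedom 11.2 to 107), and nothing says that they came from separate litters, so p-values measure the spread between these samples.

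The tests on these counts were run in R 4.3.3 with edgeR 4.0.16. Genes passing filterByExpr with a minimum count of 10 (17964) were TMM-scaled and fitted by quasi-likelihood with robust dispersions and 1 mean per group over all 12 libraries, leaving 7 residual degrees of freedom and a biological coefficient of variation of 31.5%. Tests were two-sided, with Benjamini-Hochberg adjustment over all tested genes and a threshold of 0.05. The procedure was tested on simulated data. Centred log2 CPM used a prior count of 2. Alternatives were DESeq2 1.42.0, other scalings, no filter, only the compared groups, a replicate block, a sex pattern term and leaving out each library.

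The members, the 5 pathway lists and the 10 marker lists were chosen with earlier results of these data known. All members were described, and from each pathway list the 3 genes with the smallest p in each comparison with controls were eligible for naming, as were the 3 genes nearest to each member, of which 1 is not reported here. The list counts under other settings were added after the data were seen.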

Additional observations from a re-analysis of the deposited data

Results flagged for a closer look

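The MYC effect differed from the 4-week YAP effect, by edgeR's test of that difference adjusted over all genes, in 13 of the named pathway genes, and in none of the members. Over all tested genes 7.48% were called. The named genes were picked for a small p in the comparisons with controls, from these same libraries. Their count is therefore not to be read against that share or against the members. The difference in log2 fold change was below 0 for Egr1 (-5.50), Fos (-4.55), Rhbdf1 (-3.63), Ier2 (-2.97), Spry1 (-2.32), Fosl2 (-1.87), Spint2 (-1.49), Gab1 (-1.48), Cblc (-1.45), Gab2 (-1.21), Dusp7 (-1.18) and Nf1 (-0.96), and above 0 for Hgfac (2.09). Rhbdf1 and Ier2 were called in all 17 other settings of this difference, and Egr1, Fos, Spry1, Gab1 and Spint2 in 16, the exception being the sex pattern term, under which Rhbdf1 and Ier2 had the largest adjusted p of any setting, 0.0374 and 0.0478. The other 6 were less firm: Fosl2 was called in 14 of the 17 settings, Nf1 in 13, Dusp7 in 12, Gab2 in 11, Hgfac in 10 and Cblc in 7. With 1 library left out, 10 fits in all, they were called in 8, 7, 6, 6, 4 and 2 fits, in the same order of genes. The models differ in age, sex pattern and time of induction, which cannot be told apart from the oncogene. For Egr1 and Ier2 the MYC controls also stood far above the YAP controls.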

How the results depend on the processing

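Of the 9 tested members, the fall of Egfr under MYC and the rise of Hbegf at 2 weeks of YAP were called under every alternative run. Members called at 2 weeks numbered 4, and 1 with a sex pattern term, and 1 to 4 when 1 library was left out. At 4 weeks they numbered 4, and 0 with a sex pattern term, which rests on the 2-week pair alone for its estimate, and 2 to 5 with a library left out. Under MYC they numbered 3, and 5 with total counts in place of TMM, and 1 to 5 with a library left out. Between 4 and 2 weeks they numbered 0, and 0 to 1 with a library left out. For the MYC effect minus the 4-week YAP effect they numbered 0, and 3 with total counts, 3 with DESeq2, and 0 to 3 with a library left out. Where an arm was left with 1 library, that library was assumed to vary like the other groups.

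Changes of sign were seen for members as follows, and the cause was not tested. At 2 weeks Egfr was 0.19 with total counts and -0.65 to 0.00 with a library left out, and Hgf was -0.02 with a sex term and -0.01 to 0.14 with a library left out. At 4 weeks Erbb3 was 0.31 with a sex term, and Met 0.05 and Hgf 0.21 with total counts. Under MYC Ereg was -0.64 with the replicate block and -0.69 to 0.74 with a library left out. Between 4 and 2 weeks the ranges with a library left out were -0.19 to 1.03 for Erbb3, -0.14 to 0.31 for Met, -0.04 to 0.38 for Hbegf, -0.99 to 0.30 for Tgfa, -0.33 to 0.78 for Btc and -0.57 to 2.18 for Ereg. Ereg was also -0.15 with the block and -0.59 with a sex term, and Tgfa was 0.07 with total counts. In the difference between effects Met was -0.05 with total counts and -0.14 with a sex term.

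Replicate numbers were not used as pairs in the main fit. By a check of deviations from group means, 3 of 21 same-numbered pairs had a correlation over 0.1 (range -0.14 to 0.172), and 7 of 12 libraries correlated best with their own number. In groups of 2 the deviations mirror each other, so this check cannot settle whether the numbers pair the libraries. With the replicate block the members called were 4 at 2 weeks, 3 at 4 weeks, 2 under MYC, 0 between times and 0 for the difference, the losses being Erbb3 at 4 weeks (-0.82, adjusted p 0.0802) and Btc under MYC (-2.87, adjusted p 0.0687).

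Pathway list counts, in higher and lower calls together, had these ranges with 1 library left out. Other family genes had 1 to 2, 2 to 3, 0 to 1 and 0 to 1 calls at 2 weeks, at 4 weeks, under MYC and in the difference, and in the same order activation had 3 to 4, 3 to 12, 0 to 6 and 2 to 5, relays 4 to 5, 4 to 8, 0 to 5 and 1 to 3, feedback 4 to 4, 4 to 9, 3 to 9 and 1 to 8, and ERK output 1 to 6, 1 to 8, 6 to 11 and 4 to 10. Feedback in the difference had 1 call without YAP control replicate 2 or either MYC control. Under the other settings the counts moved by over 1.5 times as follows. With a sex term they were 1 for other family genes, 3 for activation, 4 for feedback and 3 for ERK output at 2 weeks, 1 for each list but ERK output (0) at 4 weeks, and 1 for activation, 0 for relays, 0 for feedback and 1 for ERK output in the difference. With total counts they were 11 for feedback at 2 weeks, 5 for other family genes, 14 for relays and 11 for ERK output at 4 weeks, and 1 for other family genes and 8 for feedback in the difference. DESeq2 gave 4 for other family genes at 2 weeks and 3 under MYC, and 1 for them and 8 for feedback in the difference. The block gave 5 for relays at 4 weeks, 1 for relays and 5 for feedback under MYC, and 1 for other family genes in the difference. With only the compared groups they were 2 for other family genes and 5 for feedback under MYC and 1 for relays in the difference. Areg, without the low-count filter, had a fitted log2 fold change of -6.45 at 4 weeks (adjusted p 0.0164), which is no bound. Groups of 2 or 3 livers and the low counts of Areg, Ereg and Btc limit the precision.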
